A study of Mus musculus with 10 samples.

Results

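The transcripts of 9 mouse genes that make, cut or bear on the hallmark proteins of Alzheimer's disease were followed in hippocampal microglia: *App* and *Mapt*, which encode the amyloid precursor protein and tau, *Psen2*, *Ncstn*, *Psenen* and *Aph1a*, which encode γ-secretase subunits, *Bace1*, the β-secretase, and *Adam10* and *Adam17*, the α-secretases. They were taken by symbol from a table of raw read counts for 55453 genes, and all 9 had a row. The cells, CD45int CD11b+, came from hippocampal tissue of 3xTg AD females over 15 months of age and gave 10 RNA libraries. The PBS group (5 libraries) received injections of PBS, and the GA group (5 libraries) received glatiramer acetate (GA), an immunomodulatory copolymer used in multiple sclerosis, at a labelled 0.1 mg per week for 8 weeks. Both groups carry the 3xTg transgenes, among them mutant human APP and MAPT driven by the neuronal Thy1.2 promoter, so the design holds no library without them. Reads from the human transgenes that align to mouse *App* or *Mapt* cannot be told apart from reads of the mouse genes.

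Total counts ran from 32332185 to 37708856 in the PBS libraries and from 33300102 to 38764643 in the GA libraries. The PBS library titles share the prefix 388, those of GA 1 and 2 the prefix 394 and those of GA 3, 4 and 5 the prefix 400, so treatment and prefix cannot be told apart. The labels do not say that the libraries of a group came from separate mice, and p-values then measure the spread between these libraries. The 7 microglial markers, *Tmem119*, *P2ry12*, *Cx3cr1*, *Sall1*, *Csf1r*, *Siglech* and *Fcrls*, summed to between 39845 and 46131 CPM (counts scaled to the library total, with the trimmed mean of M-values, TMM) in the PBS group and between 39678.5 and 42247 CPM in the GA group.

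The amyloid precursor protein is cut along either of a pair of routes. ADAM10 and, on stimulation, ADAM17 cut it within the amyloid β stretch, whereas BACE1 cuts at the start of that stretch, and γ-secretase then releases amyloid β from the membrane stub that BACE1 leaves. γ-secretase holds a presenilin (the catalytic subunit), nicastrin (*Ncstn*, which receives substrates), an APH1 protein (the scaffold) and PEN-2 (*Psenen*, which triggers maturation of the presenilin). In microglia these ADAM proteases also release receptors and cytokines such as TNF, the classical substrate of ADAM17, and TREM2. Tau is a microtubule-binding protein found mainly in neurons.

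The 5′ flanks of *Adam10* and *Aph1a* are shown, as members at different levels whose flanks hold no annotated exon, as the RefSeq promoter table for GRCm38.p6 gives them, for the 250 bases before the annotated start. *Adam10* lies on the plus strand of chromosome 9 with its flank at chr9:70678732-70678981, and *Aph1a* on the plus strand of chromosome 3 with its flank at chr3:95893671-95893920. Capitals mark GC boxes, the letters GGGCGG or their complement CCGCCC, searched on both strands with overlaps counted.
Adam10: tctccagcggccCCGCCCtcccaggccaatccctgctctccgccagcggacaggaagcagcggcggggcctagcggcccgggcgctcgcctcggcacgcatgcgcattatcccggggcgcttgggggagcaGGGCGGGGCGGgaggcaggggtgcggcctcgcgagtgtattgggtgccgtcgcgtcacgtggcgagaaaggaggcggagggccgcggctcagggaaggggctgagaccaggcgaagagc
Aph1a: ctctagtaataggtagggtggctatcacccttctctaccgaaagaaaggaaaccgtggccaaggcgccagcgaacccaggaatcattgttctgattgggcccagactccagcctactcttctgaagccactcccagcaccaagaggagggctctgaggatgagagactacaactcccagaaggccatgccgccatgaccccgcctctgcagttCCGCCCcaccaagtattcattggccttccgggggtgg
The *Adam10* flank held 3 GC boxes, 2 of them overlapping, with 74.0% G and C, and that of *Aph1a* held 1 box with 57.2% G and C. Over the 7 members with an entry, 5 of 9 entries held a GC box, compared with 32.7% of all 32851 promoters of that length, and the median G and C content of all promoters was 52.4%. The number of boxes was not ordered by level: *Ncstn*, the most abundant member per length, had 0, both entries of *Psenen* had 0, and the scarcer *Psen2* had 2 in 1 of its entries. The match of letters is a description of the flank and says nothing of binding.

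Per kilobase of merged exon (GENCODE M21, GRCm38), the 9 genes spread over a wide range. *Ncstn* was highest, at 119 ± 8.48 CPM per kb (SD, n = 10 libraries), followed by *Adam10* at 97.9 ± 7.52 and *Adam17* at 62.9 ± 3.37 CPM per kb. These levels stood at the 98.2, 97.6 and 96.0 percentiles of the 14348 tested genes with a known length. *App* (30.2 ± 2.52 CPM per kb) and *Psenen* (26.8 ± 2.59) came next, at the 89.8 and 88.3 percentiles. *Psen2* (5.58 ± 0.552), *Aph1a* (3.51 ± 0.759) and *Bace1* (2.20 ± 0.395 CPM per kb) lay near or below the middle of all tested genes, at the 56.0, 45.8 and 37.3 percentiles, although *Psen2* was at 11.98 CPM per kb and the 66.2 percentile by its longest transcript. *Mapt* was last, at 0.0251 ± 0.0270 CPM per kb.

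The order *Ncstn*, *Adam10*, *Adam17*, *App* held in 10 of 10 libraries, as did the order *Psenen*, *Psen2*, *Aph1a*, *Bace1*, *Mapt*. *App* was above *Psenen* in 8 of 10 libraries and in 5 of 10 when the longest transcript served as the length, so these neighbours were not separated. *Adam10* was above *Adam17* in 7 of 10 libraries by the longest transcript. The ranges over the 10 libraries overlapped for *Ncstn* and *Adam10*, for *App* and *Psenen*, for *Psen2* and *Aph1a*, and for *Aph1a* and *Bace1*, although within each library the order of these pairs other than *App* and *Psenen* did not change. By length, the APP relative *Aplp2* was at 53.9 ± 6.70 CPM per kb, above *App*. *Aplp1* was at 0.591 ± 0.260 CPM per kb, and *Bace2*, the relative of *Bace1*, had a count of 0 in 10 of 10 libraries, which allows up to 3 counts in each.

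**Figure D1:**
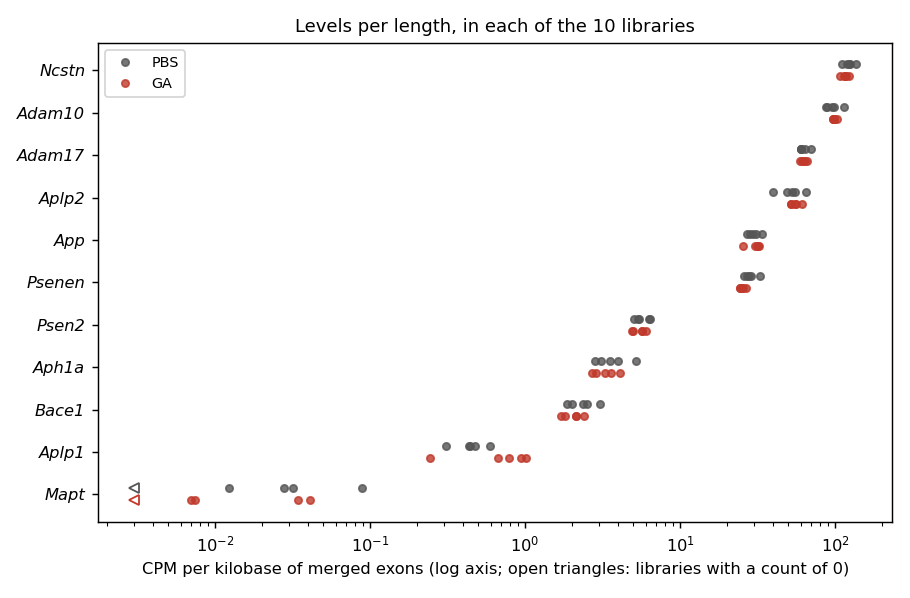
Level per length (CPM per kilobase of merged exons, log axis) of the 9 genes and of *Aplp1* and *Aplp2* in the 5 PBS (grey) and 5 GA (red) libraries; each dot is 1 library and open triangles are libraries with a count of 0. *Ncstn*, at a mean of 119 CPM per kb, is highest and *Mapt*, at 0.0251, lowest, and the PBS and GA dots of each gene overlap.

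GA against PBS was the comparison the design implies, here asking whether the transcripts of this pathway differ between microglia of GA-treated and PBS-treated mice. Of the 9 genes, 8 had enough counts to be tested and *Mapt* did not. By edgeR's quasi-likelihood test, 0 of the 8 tested members passed an adjusted *P* of 0.05, as did 0% of the 14481 genes tested. At an unadjusted *P* of 0.05, 1 of 8 passed (*Psenen*, lower in GA), where 5.75% of all genes tested passed in either direction and 3.17% with lower and 2.58% with higher values in GA. DESeq2 called 2 of all genes and 0 of the members. The fitted change was below 0 for 6 of the 8 members, with a median log2 fold change of -0.08, and 49.9% of all genes tested were below 0. For 6 of the 8, the 95% interval of the log2 fold change lay within 0.5 of 0, as it did for 8355 of the 14481 genes tested. Beside these values, 6 neutrophil markers summed to 33.7 to 413 CPM in PBS (median 269.9) and to 8.52 to 154 CPM in GA (median 38.7), with 5 of 6 at an unadjusted *P* under 0.05, each lower in GA, and 0 past adjustment by edgeR. The 4 monocyte markers summed to 37.2 to 135 CPM in PBS and 45.2 to 98.7 CPM in GA, with 1 of 4 at an unadjusted *P* under 0.05 (*Ly6c2*, log2 fold change -1.94, mean 0.508 CPM). The part of these cells in the members' values was not tested.

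**Figure D2:**
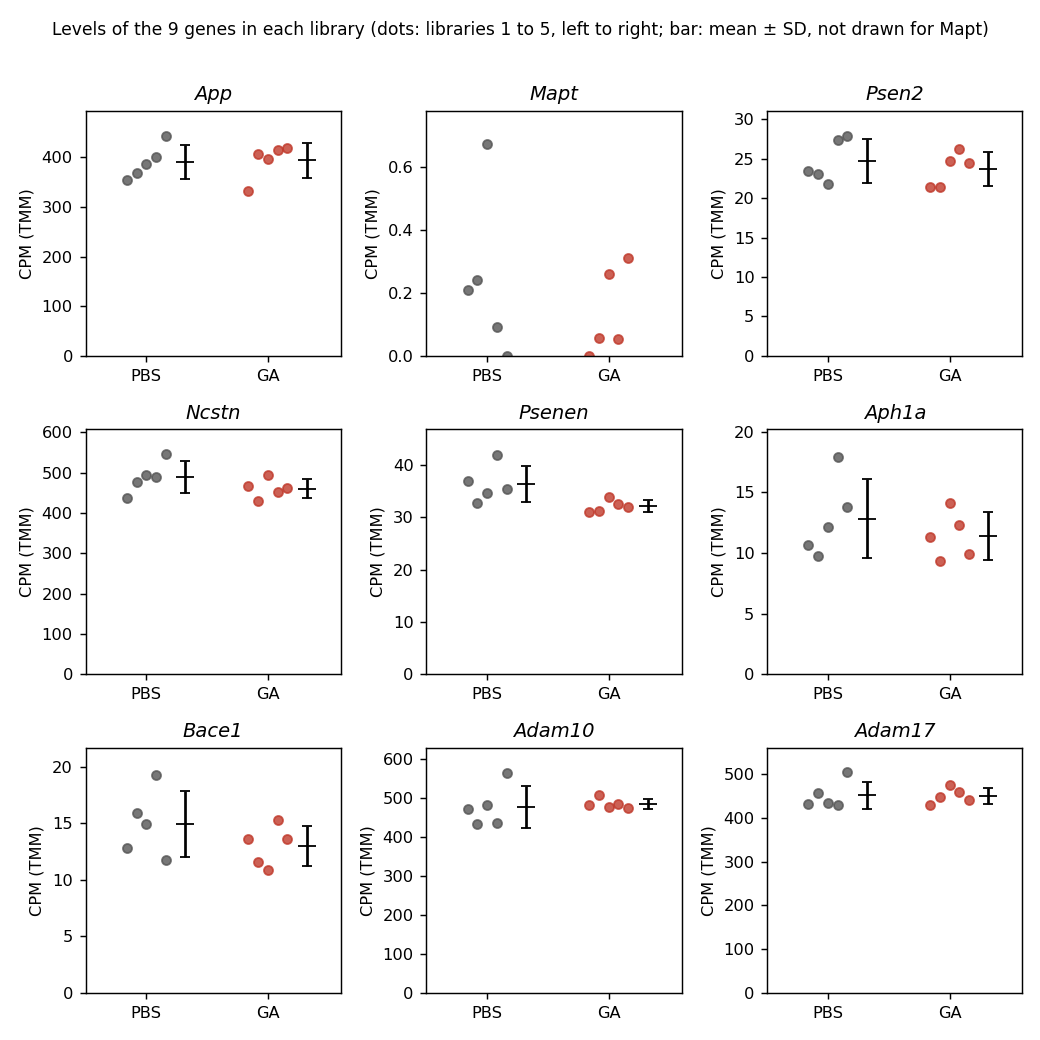
CPM (TMM) of each of the 9 genes by treatment, with its own axis from 0; dots are libraries 1 to 5 from left to right and the bar is the mean ± SD (n = 5), not drawn for *Mapt*. The groups overlap for every gene shown, and 4 of the 5 GA libraries lie below all PBS libraries for *Psenen*.

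*App*, the substrate, was at 354, 368, 386, 400.2 and 443 CPM in PBS 1 to 5 and at 332, 406, 397, 415 and 418 CPM in GA 1 to 5. The group means were 390.2 ± 34.2 and 394 ± 35.3 CPM (SD, n = 5 each), with the lowest value in GA 1 and the highest in PBS 5. The log2 fold change was 0.01 (SE 0.08, 95% interval -0.16 to 0.18, adjusted *P* = 0.990 by edgeR), and the two-sided exact permutation test over the libraries gave *P* = 0.897. Counts behind these values ran from 11085 to 16254. *Mapt*, which encodes tau, was counted 8, 8, 22, 3 and 0 times in PBS 1 to 5 and 0, 2, 9, 2 and 12 times in GA 1 to 5. At this depth each group held a library with a count of 0, the largest value was 0.672 CPM in PBS 3, and no difference was detectable (two-sided exact permutation test, *P* = 0.492).

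Among the γ-secretase subunits, *Psenen* was at 36.8, 32.7, 34.7, 41.9 and 35.4 CPM in PBS 1 to 5 and at 31.0, 31.1, 33.8, 32.5 and 31.9 CPM in GA 1 to 5. GA 3 was the only GA library above the lowest PBS library, PBS 2. The mean was 36.3 ± 3.46 CPM in PBS and 32.1 ± 1.15 CPM in GA (SD, n = 5 each), a log2 fold change of -0.18 (SE 0.08, 95% interval -0.36 to -0.0036, edgeR unadjusted *P* = 0.0460, adjusted *P* = 0.859), and the two-sided exact permutation test gave *P* = 0.0159 where 0.00794 is the smallest it can give. The difference did not pass adjustment. Without PBS 4, the highest library, the log2 fold change was -0.12, and the unadjusted *P* was under 0.05 in 2 of the 10 fits that left out 1 library.

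*Ncstn*, the substrate receptor of the complex, was at 438, 478, 494, 489.6 and 546 CPM in PBS 1 to 5 and at 467, 429, 493.04, 452 and 461 CPM in GA 1 to 5. Its groups overlapped (log2 fold change -0.09, SE 0.07, 95% interval -0.23 to 0.05, edgeR adjusted *P* = 0.910). *Psen2*, a presenilin, was at 23.4, 23.1, 21.8, 27.4 and 27.9 CPM in PBS and at 21.4, 21.4, 24.7, 26.3 and 24.5 CPM in GA. Its log2 fold change was -0.06 (SE 0.10, 95% interval -0.28 to 0.15, edgeR adjusted *P* = 0.959). *Aph1a*, the scaffold, ran from 9.71 to 17.9 CPM in PBS, with a median of 12.1, and from 9.32 to 14.2 CPM in GA, with a median of 11.3. Its interval was the widest among the γ-secretase members (log2 fold change -0.17, SE 0.17, 95% interval -0.54 to 0.20, edgeR adjusted *P* = 0.940).

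The ratio of *Psenen* to *Ncstn* CPM was 0.0747 ± 0.00952 in PBS and 0.0697 ± 0.00255 in GA, and that of *Psen2* to *Ncstn* was 0.0506 ± 0.00454 and 0.0514 ± 0.00457 (SD, n = 5 each). Both ratios, which are not per length, overlapped between the groups.

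*Bace1*, the β-secretase, was at 12.8, 15.9, 15.0, 19.3 and 11.8 CPM in PBS 1 to 5 and at 13.6, 11.5, 10.9, 15.3 and 13.6 CPM in GA 1 to 5. Its log2 fold change of -0.20 was the furthest from 0 among the members, but its libraries scattered (SE 0.15, 95% interval -0.51 to 0.11, edgeR adjusted *P* = 0.909). The α-secretases had the smallest fitted changes of the enzymes. *Adam10* was at 472, 432, 481, 435 and 564 CPM in PBS and at 482, 508, 476, 483 and 475 CPM in GA, a log2 fold change of 0.02 (SE 0.07, 95% interval -0.13 to 0.18, edgeR adjusted *P* = 0.977). *Adam17* was at 431, 455, 434, 429 and 504 CPM in PBS and at 428, 447, 474, 458 and 439 CPM in GA, a log2 fold change of -0.0044 (SE 0.06, 95% interval -0.14 to 0.13, edgeR adjusted *P* = 0.997). The ratio of *Adam10* to *Adam17* CPM was 1.06 ± 0.0729 in PBS and 1.08 ± 0.0539 in GA (SD, n = 5 each).

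**Figure D3:**
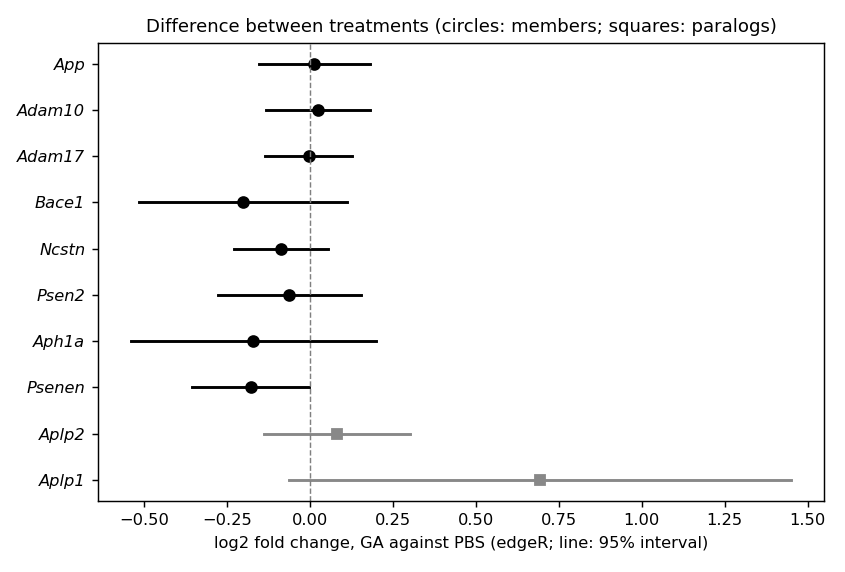
log2 fold change of GA against PBS with its 95% interval (edgeR, 5 libraries per group) for the 8 tested members (circles) and the paralogs *Aplp1* and *Aplp2* (squares). The interval of *Psenen* ends at -0.0036, just short of 0, and those of the other members include 0.

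The extremes of the members fell in few libraries. The highest of the 10 values lay in PBS 5 for 5 of the 8 tested members and in PBS 4 for the other 3, and with scaling by library size alone each of these libraries held 4. Over all genes tested, PBS 5 held the highest value for 13.1% and PBS 4 for 20.6%, and the sum of the microglial markers was also highest in PBS 5, at 46131 CPM. The lowest value lay in GA 1 for 4 members and in GA 2 for 2, and these libraries held the lowest value for 8.64% and 9.15% of all genes tested. PBS 4 and PBS 5 also had the highest mitochondrial share of counts, 0.180% and 0.175%, against 0.129% to 0.152% in the other libraries, and the TMM factor of PBS 5, 0.954, was the lowest. The part of these properties in the members' values was not tested. Without PBS 5 the log2 fold change was 0.10 for *Adam10*, -0.04 for *Ncstn* and -0.01 for *Psen2*, and without PBS 4 it was -0.02 for *Aph1a* and -0.09 for *Bace1*.

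*App* and *Mapt* are also made by neurons and by other glia, so their levels were set beside markers of those cells. The 12 neuronal markers summed to 2.29 to 4.61 CPM in PBS and 1.92 to 3.67 CPM in GA, 11 of the 12 had a mean below 1 CPM, and *Camk2a* alone made 59.4% of the sum. *Thy1*, whose promoter drives the transgenes, was counted 0 to 10 times per library. The 6 oligodendrocyte markers summed to 179 to 209 CPM in PBS and 174 to 210.5 CPM in GA, carried by *Cnp* (102 CPM), *Mbp* (53.2 CPM) and *Mag* (36.9 CPM), while *Mog*, a surface protein of myelin, was counted 0 to 11 times. The 6 astrocyte markers summed to 246 to 303 CPM in PBS and 249 to 353 CPM in GA, of which *Slc1a3*, a glutamate transporter, made 98.5% (281 CPM), while *Gfap* was at 2.30 CPM. No relation with the astrocyte sum was computed. In bulk libraries, fewer cells of a type and less RNA per cell cannot be told apart.

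Over the 10 libraries, log2 *Mapt* was correlated with the log2 sum of the neuronal markers (Pearson *r* = 0.79, permutation *P* = 0.0067, adjusted over 4 relations *P* = 0.0268; Spearman ρ = 0.72, permutation adjusted *P* = 0.0907). Without GA 1 and PBS 3, the libraries farthest from the median of the marker sum, *r* was 0.51, so the relation rests partly on them, and *Mapt* was counted at most 22 times. The permutation adjusted *P* was 0.225 without PBS 3, 0.114 without GA 1, 0.0557 without GA 3, 0.0642 without GA 4, and 0.301 with means of log2 marker values in place of sums. *App*, at 332 CPM or more, showed *r* = 0.15 with the neuronal sum and *r* = 0.26 with the oligodendrocyte sum, and *Mapt* showed *r* = -0.07 with the oligodendrocyte sum (permutation adjusted *P* = 0.846 for each). Spearman ρ for these was -0.15, 0.24 and 0.08 (permutation adjusted *P* = 0.835 for each), and *r* without the 2 libraries farthest from the median was -0.46, 0.43 and -0.36. Within the 5 PBS libraries (all of prefix 388) and within the 5 GA libraries, given as values without a test, *r* of *Mapt* with the neuronal sum was 0.76 and 0.80. For the other relations the sign differed between the groups: in PBS and GA, *App* gave -0.39 and 0.71 with the neuronal sum and 0.98 and -0.21 with the oligodendrocyte sum, and *Mapt* gave -0.74 and 0.59 with the oligodendrocyte sum, so the pooled *r* of these does not hold within the groups. The prefixes 394 and 400, with 2 and 3 libraries, were not taken alone.

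**Figure D4:**
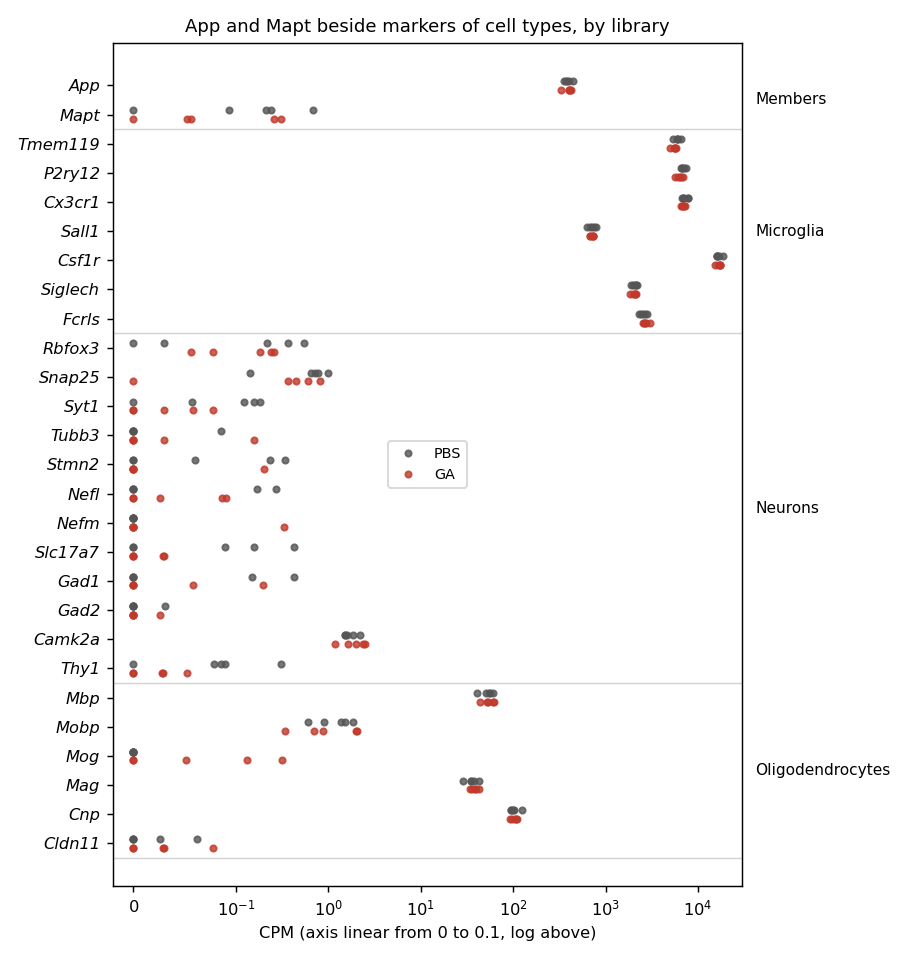
CPM of *App* and *Mapt* beside the microglial, neuronal and oligodendrocyte markers in the 5 PBS (grey) and 5 GA (red) libraries; the axis is linear from 0 to 0.1 CPM and logarithmic above, and each dot is 1 library. *App* lies between the microglial and the neuronal markers, and *Mapt* lies among the neuronal markers, nearly all of which have means below 1 CPM.

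Of the 14480 other tested genes, the 3 whose log2 CPM followed *App* most closely over the 10 libraries were *Gm6594* (*r* = 0.93), *Slc26a2*, a sulfate transporter (*r* = 0.91), and *Lxn*, a carboxypeptidase inhibitor (*r* = 0.90). *Mapt*, not itself tested, was compared with all 14481 tested genes. Its closest were *Gabbr1*, a GABA receptor subunit (*r* = 0.90), *4933407K13Rik* (*r* = 0.90) and *Ccdc134* (*r* = 0.89), with counts of *Mapt* between 0 and 22. These are the extremes of all tested genes and a description only, and each library's depth and treatment are common to every gene compared. Among the tested members, which leave out *Mapt*, the closest pair was *Psenen* and *Aph1a* (*r* = 0.75 over 10 libraries), and *Bace1* and *Adam10* were the most opposed (*r* = -0.68).

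Around the members, 107 genes in 8 lists (chosen with earlier results of these data known) cover the partners and substrates of the secretases and the kinases of tau. Of these, 90 were tested, 46 had higher and 44 lower fitted values in GA, 0 passed an adjusted *P* of 0.05 by edgeR, and 8 (8.89%) passed an unadjusted 0.05, against 5.75% of all genes tested. The median log2 fold change was 0.0069 over these genes and 0.0002 over all genes tested. Groups of libraries did not overlap for 2 of them, *Apba1* and *Apba3*, as for 0.891% of all genes tested. The smallest adjusted *P* among them was 0.847.

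Of the 9 γ-secretase partners, all tested, 6 were higher and 3 lower in GA, and 2 passed an unadjusted *P* of 0.05, both higher. *Aph1b*, an alternative scaffold to *Aph1a*, was at 1.47, 1.64, 0.886, 0.620 and 1.33 CPM in PBS 1 to 5 and at 0.929, 2.11, 4.48, 3.49 and 3.81 CPM in GA 1 to 5. The libraries of prefix 400 (GA 3, 4 and 5) held the 3 highest values, and GA 1 lay within the PBS range. The log2 fold change was 1.31 (SE 0.40, edgeR unadjusted *P* = 0.0054, adjusted *P* = 0.847), and with the GA libraries of prefix 394 alone it was 0.35. *Aph1b* and its close paralog *Aph1c* (log2 fold change 0.27, adjusted *P* = 0.929) share sequence, so reads may be split between them. *Arrb2*, a β-arrestin that binds the complex, was at 231 ± 22.9 CPM in PBS and 273 ± 23.4 CPM in GA (SD, n = 5 each; log2 fold change 0.24, SE 0.08, edgeR adjusted *P* = 0.847). *Bsg* (439 CPM in PBS and 458 CPM in GA), with *Arrb2*, was the most abundant of the list.

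Of 10 genes around BACE and the sorting of APP, 9 were tested, 5 higher and 4 lower, and 1 passed an unadjusted *P* of 0.05. *Sorl1*, a sorting receptor that steers APP away from β-cleavage, was at 119, 108, 109.9, 110.3 and 119.8 CPM in PBS 1 to 5 and at 131, 195, 118, 131 and 123 CPM in GA 1 to 5. Its fitted log2 fold change was 0.30 (SE 0.12, edgeR adjusted *P* = 0.848), 0.15 without GA 2, the library at 195 CPM, and 0.53 with the GA libraries of prefix 394 alone. *Gga3*, an adaptor that carries BACE1 to lysosomes, had a log2 fold change of -0.06 (SE 0.07, edgeR adjusted *P* = 0.945), which was -0.03 without PBS 3 and -0.10 without PBS 1. *Vps35*, a retromer subunit (339 and 344 CPM), and *Rtn3* (308 and 305 CPM in PBS and GA) were the most abundant.

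Of 15 genes listed as regulators of ADAM proteases, 11 were tested, 3 higher and 8 lower, and 1 passed an unadjusted *P* of 0.05. This was *Adam9*, itself a protease of the family, at 96.4 ± 10.9 CPM in PBS and 109.5 ± 1.61 CPM in GA (SD, n = 5 each; log2 fold change 0.18, SE 0.08, edgeR adjusted *P* = 0.854). *Furin*, which activates pro-ADAM proteins, had a log2 fold change of -0.11 (SE 0.08, edgeR adjusted *P* = 0.910), which was -0.04 without PBS 5 and 0.02 with the title number as a replicate block. The most abundant genes of the list were *Timp2*, a metalloprotease inhibitor (1129 CPM in PBS and 1180.03 in GA), and *Tspan14*, a tetraspanin partner of ADAM10 (551 and 546 CPM). Of the other inhibitors listed, neither of which was tested, *Timp1* had a count of 0 in every library and *Timp3* was counted 0 to 12 times.

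Of 17 APP relatives and adaptors, 15 were tested, 9 higher and 6 lower, and 2 passed an unadjusted *P* of 0.05, both lower. *Apba1*, an adaptor that binds the cytoplasmic tail of APP, was at 25.0, 22.9, 24.1, 24.3 and 23.1 CPM in PBS 1 to 5 and at 15.1, 22.6, 18.3, 19.7 and 15.5 CPM in GA 1 to 5, so each GA library was below each PBS library (log2 fold change -0.39, SE 0.11, edgeR unadjusted *P* = 0.0040, adjusted *P* = 0.847). *Apba3*, of the same family, was at 41.4, 41.0, 41.7, 44.7 and 38.8 CPM in PBS and at 36.7, 35.5, 35.3, 35.7 and 38.3 CPM in GA, again without overlap (log2 fold change -0.19, SE 0.07, edgeR adjusted *P* = 0.847). For both, the two-sided exact permutation test gave 0.00794, the smallest *P* it can give. Groups of 5 without overlap always give this value, so it adds nothing to the lack of overlap. *Aplp1* was at 1.36 ± 0.314 and 2.21 ± 0.917 CPM (log2 fold change 0.69, SE 0.35, edgeR adjusted *P* = 0.876), and *Aplp2* at 307 ± 53.3 and 325 ± 21.1 CPM (log2 fold change 0.08, SE 0.10, edgeR adjusted *P* = 0.951). *Itm2b* (5754 and 5780.3 CPM) and *Itm2c* (1007 and 992 CPM), which encode BRI proteins that bind APP, were the most abundant.

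Of 14 substrates of the sheddases, 13 were tested, 8 higher and 5 lower, and 1 passed an unadjusted *P* of 0.05. This was *Notch2*, a receptor, at 93.1 ± 11.5 CPM in PBS and 76.5 ± 13.1 CPM in GA (SD, n = 5 each; log2 fold change -0.28, SE 0.12, edgeR adjusted *P* = 0.854). *Cd44*, a hyaluronan receptor, was at 4.35 ± 2.13 and 5.56 ± 1.71 CPM (log2 fold change 0.35, SE 0.33, edgeR adjusted *P* = 0.937), with a log2 fold change of 0.18 without PBS 3 and 0.65 without PBS 5. The microglial receptors *Csf1r* (16777 and 16703 CPM) and *Trem2* (1623 and 1661 CPM in PBS and GA) were the most abundant substrates.

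Of 9 Notch pathway genes, whose activity depends on γ-secretase, 4 were tested, 2 higher and 2 lower, and 0 passed an unadjusted *P* of 0.05. *Maml1*, a co-activator, had a log2 fold change of -0.21 (SE 0.15) and *Nrarp*, a Notch target, of -0.24 (SE 0.21), with edgeR adjusted *P* of 0.896 and 0.928. Leaving out 1 library moved either log2 fold change to -0.12 (PBS 4 for *Maml1*, PBS 1 for *Nrarp*). *Rbpj*, the DNA-binding partner of Notch, was at 29.7 and 31.1 CPM. Of 24 kinases, phosphatases and other modifiers of tau, 23 were tested, 8 higher and 15 lower, with 1 at an unadjusted *P* under 0.05. This was *Gsk3b*, a main tau kinase, at 67.9, 68.1, 56.2, 78.6 and 72.3 CPM in PBS 1 to 5 and at 61.5, 67.6, 55.7, 57.1 and 47.6 CPM in GA 1 to 5 (log2 fold change -0.25, SE 0.10, edgeR adjusted *P* = 0.854). Its groups overlapped, with GA 1, 2 and 4 above PBS 3, and the log2 fold change was -0.08 with the GA libraries of prefix 394 alone and -0.35 with those of prefix 400 alone. *Ttbk1*, a tau-tubulin kinase, was at 0.223 and 0.447 CPM (log2 fold change 0.99, SE 0.65, edgeR adjusted *P* = 0.896), and *Csnk1e* (375 and 364 CPM) and *Csnk1d* (273 and 287 CPM) were the most abundant. Of 9 microtubule-associated genes, 6 were tested, 5 higher and 1 lower, and 0 passed, with *Stmn1*, a microtubule-destabilizing protein, at 0.32 (SE 0.16, edgeR adjusted *P* = 0.874) and *Map7d1* at 0.07 (SE 0.06, edgeR adjusted *P* = 0.923; 0.05 without PBS 4). *Map1s* (231 and 236 CPM) and *Map4* (197 and 187 CPM) were the most abundant of the list by CPM, whereas *Map2* and *Map1a*, which like *Mapt* were not tested, were counted at most 10 and 7 times per library, and *Map6* had a count of 0 in 10 of 10 libraries.

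**Figure D5:**
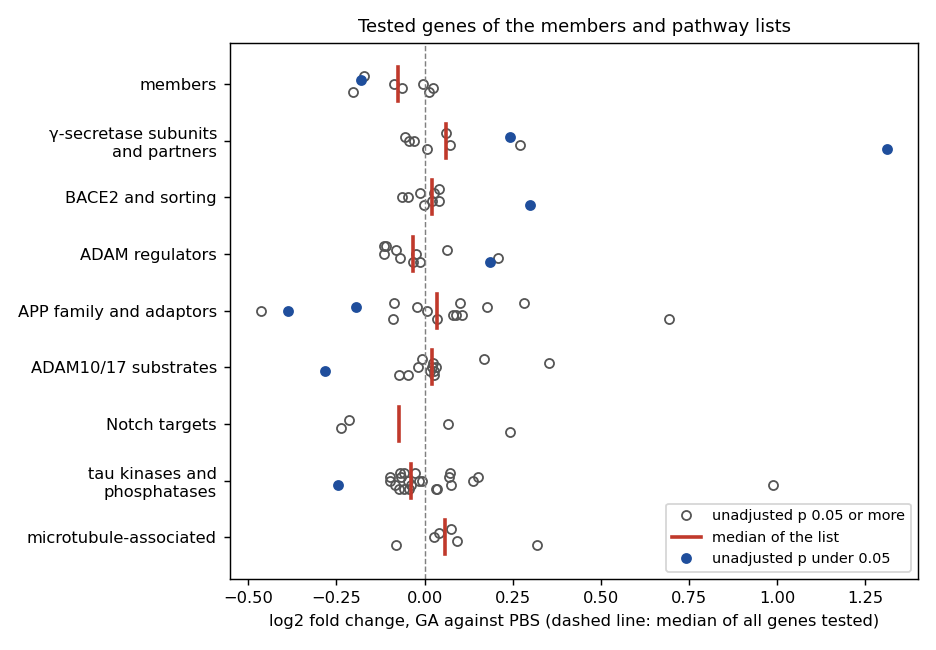
log2 fold change of GA against PBS (edgeR) for each tested gene of the members and of the 8 pathway lists; filled circles passed an unadjusted *P* of 0.05, red bars are the medians of the lists, and the dashed line is the median of all 14481 genes tested. The medians lie near the dashed line, and *Aph1b* is the point furthest to the right at 1.31.

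On GRCm38, with positions from GENCODE M21, *App* lies at chr16:84949685-85173766, *Mapt* at chr11:104231390-104332090, *Psen2* at chr1:180227004-180263438, *Ncstn* at chr1:172066013-172082795, *Psenen* at chr7:30561863-30563627, *Aph1a* at chr3:95893969-95898288, *Bace1* at chr9:45838580-45864399, *Adam10* at chr9:70678997-70780229 and *Adam17* at chr12:21323509-21373632, and the counts cover exons of these protein-coding genes. Exons on the opposite strand overlap 6 of the 9, and the sources used here do not state whether counting used strand, so reads in the shared stretch could count for either gene or for neither. *Bace1* shares 975 bases (15.36% of its exon bases) with *Rnf214* (962 to 1313 counts). It also shares 951 (14.98%) with *Gm49338* (123 to 251 counts) and 135 (2.13%) with *Gm16536* (18 to 59 counts). The level per kilobase of *Bace1* was not corrected for these stretches, and their effect on it was not tested. *Ncstn* shares 195 bases with *Copa*, itself counted 12456 to 16154 times. *Aph1a* shares 445 bases with *Car14* (0 to 5 counts), *Adam17* 311 with *Iah1*, *Psenen* 119 with *U2af1l4* (7 to 26 counts) and 111 (8.71% of its exon bases) with *Gm49396* (215 to 451 counts, log2 fold change 0.16), and *App* 113 with *Gm49227* (0 to 2 counts), while *Mapt*, *Psen2* and *Adam10* share none.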

How the data were processed

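RNA from sorted hippocampal microglia was pre-amplified (SMARTer Ultra Low Input v4), made into Nextera XT libraries and sequenced in 10 libraries, 5 per treatment. The authors deposited raw counts of reads per gene, whole numbers without normalization. The submitters' processing notes name bcl2fastq 2.19.0, fastp 0.20.0, STAR 2.7.0f, featureCounts of Subread 1.6.4, DESeq2 and GRCm38.p6; the gene annotation and strandedness are not given in the sources used here. Treatment was taken from the sample labels, and 0 count columns lacked a sample. Amplification without molecular identifiers means that limits from counts cover counting error only.

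The members and gene lists were chosen with earlier results of these data known. Genes were filtered with filterByExpr (minimum count 10), scaled by TMM and tested for GA against PBS without a covariate by edgeR 4.0.16 (quasi-likelihood F-test, Benjamini-Hochberg adjustment over 14481 genes, threshold 0.05; common dispersion 0.0464), in R 4.3.3 with limma 3.58.1 and DESeq2 1.42.0 as alternatives. The script was tested on simulated data. Single genes were also compared by two-sided exact permutation tests over the 252 arrangements of the libraries on log2(CPM + 0.1), and relations by 100000 permutations (scipy 1.17.1). Levels per kilobase used merged exons of GENCODE M21. No pair of libraries within a group was a copy of another (chi-square per degree of freedom at least 9.83).

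A few genes of the lists are not reported here and were left out of their lists and marker sums. Named were the 9 members, *Bace2*, *Aplp1* and *Aplp2*, in each list the 2 genes of smallest unadjusted p and the 2 most abundant, the 3 genes most like *App* and *Mapt*, and microglial, neuronal and oligodendrocyte markers. *Aph1c*, *Timp1*, *Timp3*, *Map2*, *Map1a*, *Map6*, *Ly6c2*, *Slc1a3* and *Gfap* were named after their values were seen. Alternatives were DESeq2, limma-voom, robust fits, DESeq2 size factors, library size alone, no filter, a minimum of 10 counts in every library, each library left out, the GA libraries of each title prefix, the title number as a block, a pseudocount of 1 and the longest transcript as length. Protein sequences were not used here.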

Additional observations from a re-analysis of the deposited data

Results flagged for a closer look

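In groups of 5 libraries, a library was marked when its gap to the nearest other library was large for the range of the group (Dixon's 95% critical value, which chance passes in about 1 of 20 groups). Of 22 groups examined, 2 were marked. The *App* level in GA 1 was 332 CPM, below the next GA library at 397 CPM, and *Adam10* in GA 2 was 508 CPM, above the next at 483 CPM.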

How the results depend on the processing

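The 9 genes gave 0 past an adjusted *P* of 0.05 under every alternative tried, as did the pathway lists. Over all genes the count was 0 in the edgeR fit, 2 by DESeq2 and 0 to 1 with 1 library left out. The sign of the fitted change was not settled for *App* (-0.074 with the GA libraries of prefix 394 only), *Psen2* (0.031 with prefix 400 only, 0.054 with the replicate block), *Aph1a* (0.067 with the block) and *Adam17* (0.0049 without a filter, 0.026 with prefix 400 only, 0.025 with the block), and the same held for *Furin* (0.021 with the block) and *Cd44* (-0.022 with prefix 394 only). With 1 library left out the log2 fold change ran from -0.020 to 0.069 for *App*, from -0.0094 to 0.10 for *Adam10*, from -0.021 to 0.044 for *Adam17* and from -0.00013 to 0.18 for *Aplp2*.

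The title numbers did not pair the libraries: the correlations of deviations ran from -0.12 to 0.05, none over 0.1, and the number as a replicate block gave 0 calls over all genes and 0 among members and lists. By the longest transcript as length, levels were 48.0 CPM per kb for *App*, 11.98 for *Psen2*, 157 for *Ncstn*, 48.3 for *Psenen* and 101 for *Adam17*. With library size alone, *r* was 0.087 for *Mapt* with oligodendrocyte markers. With means of log2 marker values, *r* was -0.29 for *App* and 0.59 for *Mapt* with neuronal markers (permutation adjusted *P* = 0.301 for the latter), and 0.15 for *Mapt* with oligodendrocyte markers. With 1 library left out, *r* ran from 0.66 to 0.87 for *Mapt* with neuronal markers (permutation adjusted *P* from 0.0146 to 0.225), from -0.44 to 0.30 for *App* with neuronal markers, and from -0.23 to 0.15 for *Mapt* with oligodendrocyte markers. The cause of these shifts was not tested. Depth limits *Mapt* and *Bace2*, whose counts reach 22 and 0.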
